A study of Mus musculus with 2 samples.

Results

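The genes described here are 10 markers of T cells in mouse epidermis, measured in epidermis with the vitamin D receptor deleted from keratinocytes and in littermate control epidermis. They were chosen by gene symbol as markers of the T cells that live in the epidermis, with earlier results of these data known. They are represented by 15 of the 25697 probes on the array and by 10 of 17872 gene symbols. For 9 of them, with 12 probes, the table carries the current symbol, while Cd247 stands under its older name Cd3z with 3 probes and was matched by its Entrez gene number. The study used C57BL6 mouse pups at postnatal day 5, whose back skin was treated with dispase to lift the epidermis from the dermis. The KO group carried floxed Vdr alleles (VDR fl/fl) together with Cre recombinase driven by the keratin 14 (K14) promoter of basal keratinocytes, so the deletion was directed at keratinocytes. The CON group carried the same floxed alleles (VDR fl/fl) without Cre. RNA from 3 mice was combined into 1 pool for each genotype, and each pool was measured on 1 bead array. Since each genotype had a single pool, the spread between mice was not measured, differences are given as sizes without a test, and precision is limited by having 1 array per genotype.

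A T cell recognises its target through a receptor whose antigen-binding chains cannot signal by themselves. The signal passes through the CD3 gamma, delta and epsilon chains and through the CD3 zeta chain encoded by Cd247, whose cytoplasmic tails are phosphorylated by the kinase Lck. In mouse epidermis the resident T cells are mainly dendritic epidermal T cells, gamma delta T cells that settle among keratinocytes around birth and are known for responding to stressed or wounded keratinocytes, in part through the receptor NKG2D.

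A probe was called detected where its detection p-value, which places its signal among the negative control beads of the same array, was under 0.01. By this rule 11422 probes (44.4%) were detected in the KO pool and 11501 (44.8%) in the CON pool. The mean background signal inferred from the detection p-values was 141.93 in KO and 137.94 in CON. Raw signal was higher in KO for 66% of all probes, with a median difference of 5.0 units, so raw values near background are read beside their normalized log2 changes. Of 11 measured keratinocyte markers 10 were detected, with Krt10, a keratin of the suprabasal layers, at a raw signal of 33073.8 in KO and 30955.8 in CON. The brightest of 3 probes for Vdr, the targeted gene, read 2442.1 in KO and 1913.0 in CON, a log2 change of 0.33. The other 2, also detected in both pools, went apart, with log2 changes of 0.37 and -0.23. Neither the deleted part of Vdr nor the place of these probes in it is known from the labels or files, so the Vdr signal does not check the genotypes, and the directions below take the labels KO and CON as given.

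Signal for T cell transcripts was present in both pools, with 9 of the 10 genes detected in at least 1 pool and 7 in both. Of all genes on the array 49.6% were detected in at least 1 pool and 46.3% in both. The gene not detected in either pool was Il2rb. The changes were small. After background correction and quantile normalization (neqc), 7 of the 9 detected markers were higher in KO and 2 were lower, and the median log2 change, KO over CON, was 0.19, or 1.14-fold. The higher ones included Cd7, detected in KO only, and Thy1, at 0.01, and the lower ones included Klrk1, detected in CON only. Over the 7 markers detected in both pools the median was also 0.19. Over all 8865 detected genes the median log2 change was 0.00 with an SD across genes of 0.30, and 50.2% had a log2 change above 0.

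**Figure D1:**
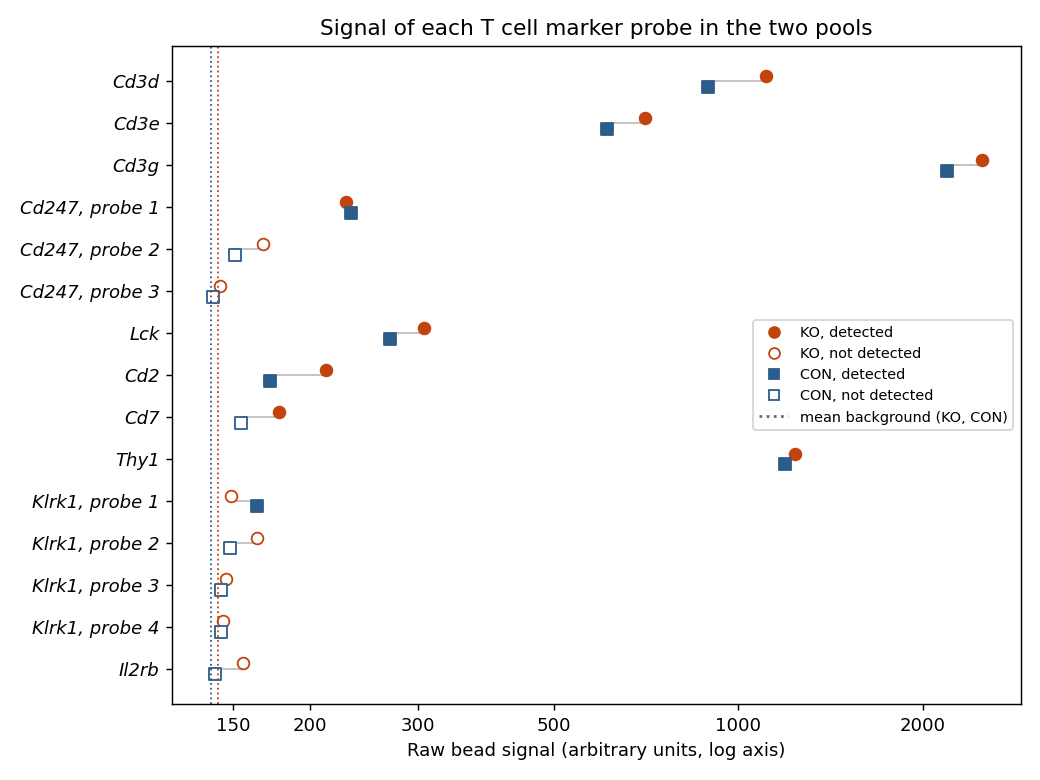
Raw bead signal in arbitrary units on a log axis for each of the 15 probes, with KO as circles and CON as squares, filled where the probe was detected, and the mean background of each array as a dotted line. Cd3d, Cd3e, Cd3g and Thy1 stood at 609.8 or above in both pools, whereas all probes of Klrk1, Il2rb and Cd7 stood below 200.

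Transcripts of the CD3 chains that form the signalling part of the receptor stood well above background in both pools. Cd3d, the delta chain, had a raw signal of 1108.8 in KO and 892.5 in CON. Cd3e, the epsilon chain, read 703.7 in KO and 609.8 in CON. Cd3g, the gamma chain, read 2494.2 in KO and 2183.5 in CON. All 3 were higher in the KO pool, by 0.31 for Cd3d, 0.19 for Cd3e and 0.16 for Cd3g on the log2 scale, which is 1.24-fold, 1.14-fold and 1.12-fold. None of them reached 1.5-fold, the size used here to call a difference. Among the 8865 detected genes, 12% had a higher log2 change than Cd3d, 21.8% than Cd3e and 25.3% than Cd3g. These shares are over genes of all signals, and dim genes spread more. The top decile of log2 changes began at 0.31 for genes with a mean log2 signal of 8 to 10, and at 0.22 above 10. Cd3d stood at the value for its range, 8 to 10. Cd3e, in the same range, and Cd3g, in the range above 10, lay below theirs. In these bulk samples fewer cells of a type and less RNA per cell cannot be told apart.

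The fourth chain did not share that direction. The brightest of the 3 Cd247 probes was detected in both pools, at 229.3 in KO and 233.6 in CON, a log2 change of -0.18. A further probe read 168.0 in KO and 151.1 in CON, a log2 change of 0.43, but was detected in neither pool, its detection p-value in KO being 0.0113. The dimmest read 142.8 in KO and 139.3 in CON, near the background of both arrays. Only the brightest probe therefore gave a comparison for Cd247.

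Cd3g, Cd3d and Cd3e lie next to one another in the RefSeq gene table, with Cd3g and Cd3d reading away from each other from start sites 1355 bases apart. Their upstream sequences are shown because these neighbours were all higher in the KO pool, with that of Cd247, which was not, for comparison. Each line gives the 250 bases before the RefSeq start site, 5′ to 3′ on the gene's strand, from assembly GRCm38.p6. Capitals mark CAGGTG, an E box of the kind bound by E proteins, and AGGAAG, a core of the kind bound by ETS factors, on either strand (CACCTG and CTTCCT on the other strand). The windows are chr9:44980432-44980681 on the minus strand for Cd3g, chr9:44981536-44981785 on the plus strand for Cd3d, chr9:45009612-45009861 on the minus strand for Cd3e and chr1:165788431-165788680 on the plus strand for Cd247.
Cd3g: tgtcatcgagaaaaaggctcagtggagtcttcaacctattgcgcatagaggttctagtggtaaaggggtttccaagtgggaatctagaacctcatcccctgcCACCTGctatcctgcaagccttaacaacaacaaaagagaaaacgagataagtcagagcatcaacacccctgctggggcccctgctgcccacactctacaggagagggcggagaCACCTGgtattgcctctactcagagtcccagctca
Cd3d: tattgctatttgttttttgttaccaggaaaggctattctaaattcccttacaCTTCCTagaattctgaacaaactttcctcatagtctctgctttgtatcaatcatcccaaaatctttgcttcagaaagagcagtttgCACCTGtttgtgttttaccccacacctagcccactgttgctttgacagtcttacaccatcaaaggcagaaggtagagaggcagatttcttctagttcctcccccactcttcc
Cd3e: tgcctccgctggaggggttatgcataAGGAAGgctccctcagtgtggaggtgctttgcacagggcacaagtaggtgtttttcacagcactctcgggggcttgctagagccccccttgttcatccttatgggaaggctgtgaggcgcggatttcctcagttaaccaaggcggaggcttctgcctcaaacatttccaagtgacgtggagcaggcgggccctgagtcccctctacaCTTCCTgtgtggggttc
Cd247: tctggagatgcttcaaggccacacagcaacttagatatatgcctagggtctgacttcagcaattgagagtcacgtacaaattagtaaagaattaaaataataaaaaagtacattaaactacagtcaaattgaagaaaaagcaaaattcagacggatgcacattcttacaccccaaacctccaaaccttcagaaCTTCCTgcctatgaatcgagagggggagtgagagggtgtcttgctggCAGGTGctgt

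Both kinds of letters were found in the Cd3d window, with 1 match each, and in the Cd247 window, also with 1 match each. The Cd3g window held 2 matches to the E box, and the Cd3e window held 2 matches to the ETS core, 1 of them 12 to 17 bases before the start site. Of the 10 genes 6 had a window in the RefSeq table, 7 windows in all, since Lck has separate distal and proximal windows. The E box was found in 4 of these 7 windows, against 17.2% of 32851 windows of the same length, and the ETS core in 5 of 7, against 29.5%. TGTGGT, the letters of a RUNX site (ACCACA on the other strand), was found in 2 of 7 windows, against 14.0%, and AGATAA, the letters of a GATA site (TTATCT on the other strand), in 1 of 7, against 9.99%. The Klrk1 window held neither the E box nor the ETS core. A match is a description of letters and does not show binding, and the genes with a higher signal in KO were not set apart from Cd247 by either motif.

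Lck, the kinase that phosphorylates the CD3 tails, was detected in both pools with a raw signal of 307.4 in KO and 270.5 in CON. Its log2 change was 0.22, or 1.16-fold, between those of Cd3d and Cd3e. Without background correction the change was 0.12.

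The largest differences in the higher direction among the markers were those of the surface receptors Cd2 and Cd7, both at low signal. Cd2, an adhesion and costimulatory receptor of T and NK cells, read 212.9 in KO and 172.4 in CON and was detected in both pools. Its log2 change was 0.73, or 1.66-fold, and 1.35% of detected genes had a higher one. Cd7, an immunoglobulin-family receptor of T and NK cells, read 178.4 in KO, with a detection p-value of 0.00376, and 154.5 in CON, with 0.0414, so it was detected in the KO pool only. Its measured log2 change was 0.62, and because CON gave no detected level the difference is a bound of at least 1.24-fold, taken against the lowest signal among detected probes of the CON array. Both genes depended on how the background was treated, and in the authors' normalized values the signal ratio of KO to CON was 1.22 for Cd2 and 1.15 for Cd7, under 1.5-fold.

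Thy1, a surface glycoprotein that mouse T cells carry and that fibroblasts and neurons also make, did not follow the CD3 genes. It read 1236.2 in KO and 1190.2 in CON, a log2 change of 0.01. Dermal fibroblast markers were at mixed levels in the same pools. Of 10 measured 5 were detected, 2 with higher and 3 with lower values in KO, with a median log2 change of -0.10, and Col1a2, Col3a1, Lum, Pdgfra and Postn were not detected. The 1 past 1.5-fold was Col1a1, a chain of type I collagen, which was lower at 173.1 in KO and 202.3 in CON (-0.83), with a ratio of 0.804 in the authors' normalized values. The summed background-corrected signal, 2619 in KO and 2512 in CON, was led by Sparc, a matrix protein gene, at 2072.9 in KO and 1812.8 in CON (0.17). The part of fibroblasts in the Thy1 signal was not tested.

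Klrk1 encodes NKG2D, the receptor through which T and NK cells sense stress ligands on keratinocytes and other cells. Its 4 probes stood close to background. The brightest read 148.9 in KO and 163.9 in CON and was detected in CON only, with a detection p-value of 0.19 in KO and 0.00627 in CON. Its measured log2 change of -0.71 was the lowest of the markers, but since KO gave no detected level the bound on the difference was 1-fold, which gives no fold at all. The next probe went the other way, at 164.0 in KO and 148.1 in CON, a log2 change of 0.41. The other 2 read 146.2 and 144.6 in KO against 143.3 and 143.3 in CON, with log2 changes of -0.03 and -0.08 after normalization. None of those 3 probes was detected in either pool, so the array gave no usable comparison for Klrk1. Il2rb, the beta chain of the receptors for interleukin 2 and interleukin 15, read 155.5 in KO and 140.4 in CON and was not detected in either pool, with detection p-values of 0.084 in KO and 0.318 in CON.

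By the 1.5-fold rule 2 of the 9 detected markers were higher in KO (Cd2 and Cd7) and 1 was lower (Klrk1). Of all 8865 detected genes 3.10% were 1.5-fold higher and 2.28% were 1.5-fold lower. With genes undetected in 1 pool set at their bound, 1 of the 9 was 1.5-fold higher (Cd2) and 0 were lower, against 2.27% and 1.41% of all detected genes. Cd2, Cd7 and Klrk1 all had a mean log2 signal between 5 and 6.5. In that range the SD of the log2 change over 1947 detected genes was 0.40, and in the range above 10, which held Cd3g and Thy1, it was 0.19 over 2552 genes. Probes of the same gene were also compared, for genes with more than 1 probe detected in both pools. Each gene was placed by the signal of the dimmer probe of its brightest pair. Error of the pools or arrays that both probes share is left out of such a difference, so it does not measure the error of a single change. The log2 changes of their brightest pair of probes differed by a median of 0.24 over 513 genes at 5 to 6.5, by 0.16 over 630 genes at 8 to 10, where Cd3d and Cd3e lay, and by 0.10 over 319 genes above 10. The log2 changes of 0.31 for Cd3d, 0.19 for Cd3e and 0.16 for Cd3g were above the medians of their ranges. A change and a difference between 2 changes are unlike quantities, so this does not place the 3 changes beyond error. The top decile of these differences between probes began at 0.37 for 8 to 10 and at 0.28 above 10, and each of the 3 changes lay below the value for its own range.

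**Figure D2:**
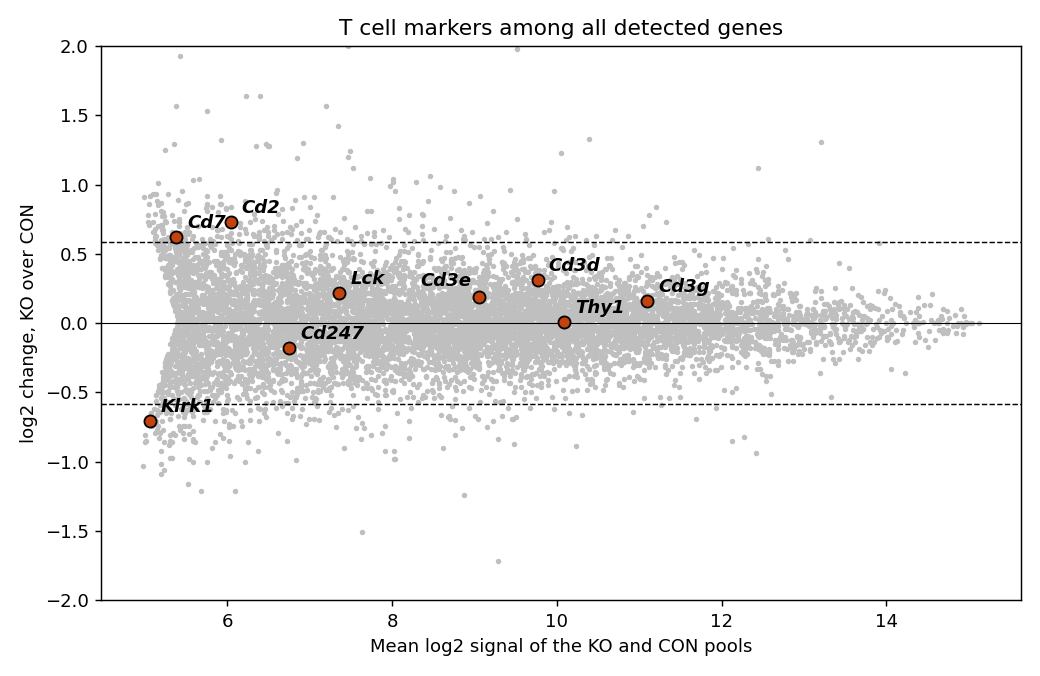
Log2 change, KO over CON, against the mean log2 signal of the pools for all 8865 detected genes (grey) with the 9 detected T cell markers in orange. Dashed lines stand at 1.5-fold, and 7 genes lie beyond the plotted range of 2. Cd2 and Cd7 lie above the upper line and Klrk1 below the lower one, all at the dim end where the grey points spread most.

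Under the other ways of processing that gave a value, the direction held for Cd3d, Cd3e, Cd3g, Cd247, Lck, Cd2 and Cd7. Thy1 stood at 0.00 after centring on the 75th percentile, and Klrk1 stood at 0.00 at its bound. Cd7 and Klrk1 had no value for subtraction of the mean background. Their size did not hold for the dim genes. Cd2 ranged from 0.25 without background correction to 1.04 after subtraction of the mean background, and Cd7 from 0.16 to 0.62. Cd3d ranged from 0.26 to 0.36, Cd3e from 0.15 to 0.25 and Cd3g from 0.14 to 0.20. In the authors' normalized values and without background correction 0 of the 9 markers reached 1.5-fold in either direction, against 0.541% of detected genes 1.5-fold higher and 0.169% lower in the normalized values, and 0.564% higher and 0.259% lower without background correction.

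**Figure D3:**
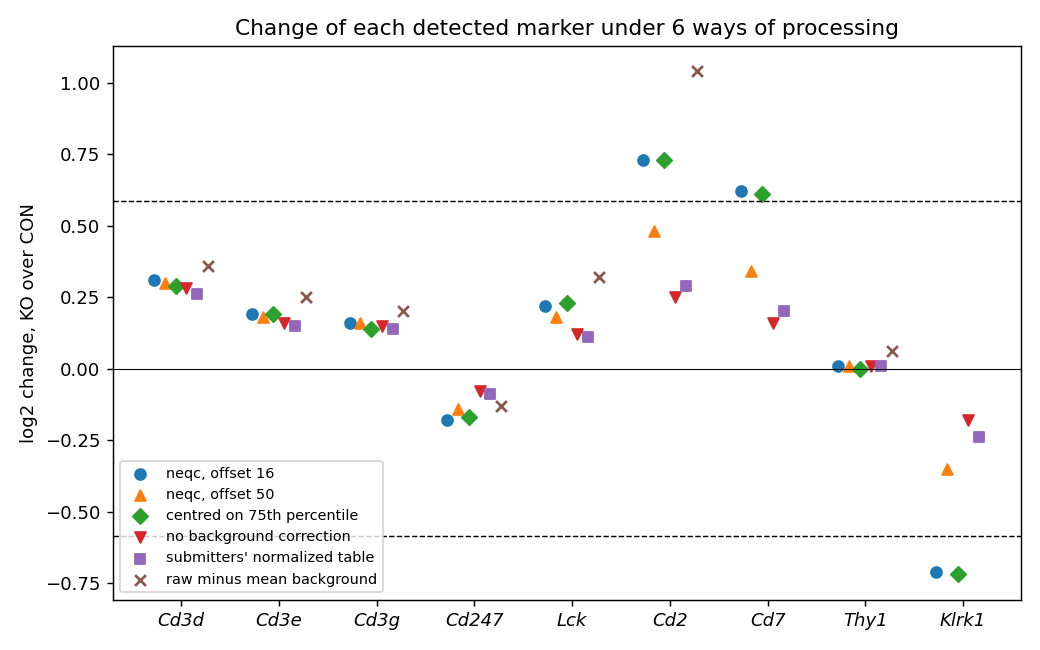
Log2 change, KO over CON, of each detected marker under 6 ways of processing, with dashed lines at 1.5-fold. Cd3d, Cd3e, Cd3g and Lck stay above 0 and below the line throughout, and the values of Cd2, Cd7 and Klrk1 shrink where the background is kept or a larger offset is used. Cd7 and Klrk1 have no value for subtraction of the mean background, since each was undetected in 1 pool.

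Genes that carry the signal onward from the CD3 chains and Lck gave small differences as well. Of 29 measured genes of T cell receptor signalling 13 were detected, 9 higher and 4 lower in KO, with a median log2 change of 0.17. Zap70, the kinase recruited to phosphorylated CD3 tails, read 234.5 in KO and 213.9 in CON (0.17) by its brightest probe. Of its 2 detected probes 1 was above 0. Trat1, an adaptor associated with the receptor, read 404.2 in KO and 338.7 in CON (0.30). Vav1, an exchange factor of lymphoid and other blood cells, read 357.6 in KO and 311.9 in CON (0.22). The 1 gene past 1.5-fold was Malt1, a protease of antigen receptor signalling that other cells also make, at 184.7 in KO and 151.9 in CON, undetected in CON, with a bound of 0.47 on the log2 scale. Bcl10, Nfatc1, Rasgrp1, Csk and Ptpn6, which read 883.0 or more in KO and 915.2 or more in CON, are also made outside T cells. Lat, Lcp2, Cd28, Themis and both Ptprc probes were not detected, although Ptprc encodes CD45, a surface protein of nearly all leukocytes.

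Receptor and ligand partners of the markers were read from the same pools. Hcst, which encodes the adaptor DAP10 of NKG2D, was detected in both pools at 268.4 in KO and 241.4 in CON (0.18), while the adaptor gene Tyrobp had a log2 change of -0.09 and the ligand genes Raet1a, Raet1b, Raet1d and Raet1e were not detected. Of 13 measured genes of the common gamma chain cytokine pathway, to which Il2rb belongs, 5 were detected. By their brightest probes all 5 were higher in KO, with a median log2 change of 0.20 and none past 1.5-fold. They were Il2rg, the common gamma chain (0.24), Il7r (0.27), Il15 (0.09), Il15ra (0.14) and Stat5a (0.20). For Il15 and for Il15ra, 2 of 3 detected probes were above 0. Among 10 measured partners of CD2 and CD7 and related receptors 5 were detected. Cd244a, a receptor of NK cells and some T cells, read 201.4 in KO and 160.2 in CON, undetected in CON, with a bound of 0.82 on the log2 scale, and the CD7 ligand family genes Sectm1a and Sectm1b had log2 changes of -0.15 and 0.10.

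Features known of dendritic epidermal T cells went in both directions. Of 24 measured genes 9 were detected, 4 higher and 5 lower in KO, and the median log2 change was -0.04. Past 1.5-fold were 2 that were higher (Xcl1 and Sema4d) and 2 that were lower (Prf1 and Klf2). Of all detected genes 3.10% were 1.5-fold higher and 2.28% were 1.5-fold lower. Xcl1, the chemokine lymphotactin, read 624.7 in KO and 442.8 in CON (0.59, or 1.51-fold). Prf1, which encodes the pore-forming protein perforin of cytotoxic cells, was lower, at 690.8 in KO and 1003.7 in CON (-0.69). Its second probe was detected in neither pool. Sema4d, which encodes the semaphorin CD100, read 219.0 in KO and 177.1 in CON (0.69). In the authors' normalized values the signal ratio of KO to CON was 1.35 for Xcl1, 1.22 for Sema4d, 0.68 for Prf1 and 0.837 for Klf2, all under 1.5-fold. Klf2, a transcription factor of quiescent T cells and other cells, read 156.1 in KO, where it was undetected, and 174.6 in CON (-0.79, with a bound of -0.32). Itgae, the integrin chain CD103 that holds T cells to E-cadherin, was detected by 4 of 6 probes, 3 of them above 0. The brightest Itgae probe read 549.3 in KO and 486.7 in CON (0.17). The cytotoxic cell genes Ctsw and Nkg7 had log2 changes of 0.04 and -0.04. The granzyme genes Gzma, Gzmb and Gzmc and the cytokine genes Ifng and Il17a were not detected. The genes of the T cell receptor's own antigen-binding chains were not analysed here, so that the level of the gamma delta receptor itself is not given.

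Genes listed here as markers of conventional alpha beta T cells, some of which, like Cd5, other T cells also carry, were mostly undetected. Of 10 measured 2 were detected, Cd5 at 238.4 in KO and 259.6 in CON (-0.36) and Cd4 at 160.1 in KO, where it was undetected, and 167.8 in CON (-0.45, with a bound of -0.13), both lower in KO. Cd8a, Cd8b1, Cd6, Cd27 and Foxp3 were not detected. Of 9 measured NK cell markers 3 were detected, namely Klrd1 at 215.2 in KO and 184.7 in CON (0.45), together with Prf1 and Nkg7. Ncr1, Klrb1c and Eomes, which mark NK cells more closely, were not detected in either pool. Of the markers of other cells that the split tissue could hold, 1 of 7 was detected for B cells, 3 of 12 for macrophages and monocytes, 1 of 7 for neutrophils, 0 of 8 for mast cells, 1 of 8 for endothelium and 2 of 5 for red blood cells. The 2 red blood cell genes went apart. Hba-a1, an alpha globin gene, was lower at 546.9 in KO and 783.1 in CON (-0.69), with a ratio of 0.688 in the normalized values. Slc4a1 was higher at 512.2 in KO and 386.8 in CON (0.50), with a ratio of 1.26. For skeletal muscle 5 of 9 were detected, 3 of them 1.5-fold higher in KO, against 3.10% of all detected genes. The brightest, Mylpf, read 398.3 in KO and 381.4 in CON (0.02). Des was lower (-0.28, with a bound of -0.03) and undetected in KO. Myl1, a myosin light chain gene, read 278.6 in KO and 169.2 in CON (1.64), and its ratio in the normalized values was 1.64. Myh8, a perinatal myosin heavy chain gene, and Acta1, the skeletal actin gene, were undetected in CON, with log2 changes of 1.29 and 0.62, bounds of 0.61 and 0.05, and normalized ratios of 1.35 and 1.15. Myl1 alone of the 3 therefore passed 1.5-fold in the normalized values.

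Genes shared by leukocytes went in both directions, with more of them higher in KO. Of 14 measured genes shared by leukocytes 10 were detected, 7 higher and 3 lower in KO, with a median log2 change of 0.13. Their summed background-corrected signal was 9851 in KO and 9142 in CON. The higher ones included Ptpn6 and Vav1, which also stand in the receptor signalling list, so the 2 lists are not separate sets. Itgb2, also counted as higher, was undetected in CON, with a bound of 0.07. Laptm5, a lysosomal membrane protein of blood cells, read 3629.6 in KO and 3160.4 in CON (0.18), and Cd52 read 1119.8 in KO and 944.9 in CON (0.24). Arhgdib, Ptpn6 and Coro1a, all brighter than Cd52, had log2 changes of 0.08, 0.02 and -0.02. The 1 past 1.5-fold was Rac2, a GTPase of blood cells, which was undetected in KO (-0.69, with a bound of -0.24). Of 13 measured markers of Langerhans and dendritic cells, the other resident leukocytes of epidermis, 11 were detected, 10 with values above 0 and 1 below, with a median of 0.07 and a sum of 28875 in KO and 27934 in CON. The brightest was Mfge8, a secreted milk fat globule protein that other cells also make, at 9013.2 in KO and 8131.6 in CON (0.07). Cd74 and H2-Ab1, the next brightest, had log2 changes of -0.03 and 0.05. Cd207, which encodes langerin, read 1256.4 in KO and 1053.2 in CON (0.24). Its log2 change lay between those of Cd3d and Cd3e, and no gene of the list had a higher one. The sum for the T cell markers was 5252 in KO and 4688 in CON, a ratio of 1.12, against ratios of 1.08 for the shared leukocyte genes and 1.03 for the Langerhans list. Each sum adds probes of different brightness and is led by the brightest, and the part of the leukocyte content of each pool in the CD3 differences was not tested.

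**Figure D4:**
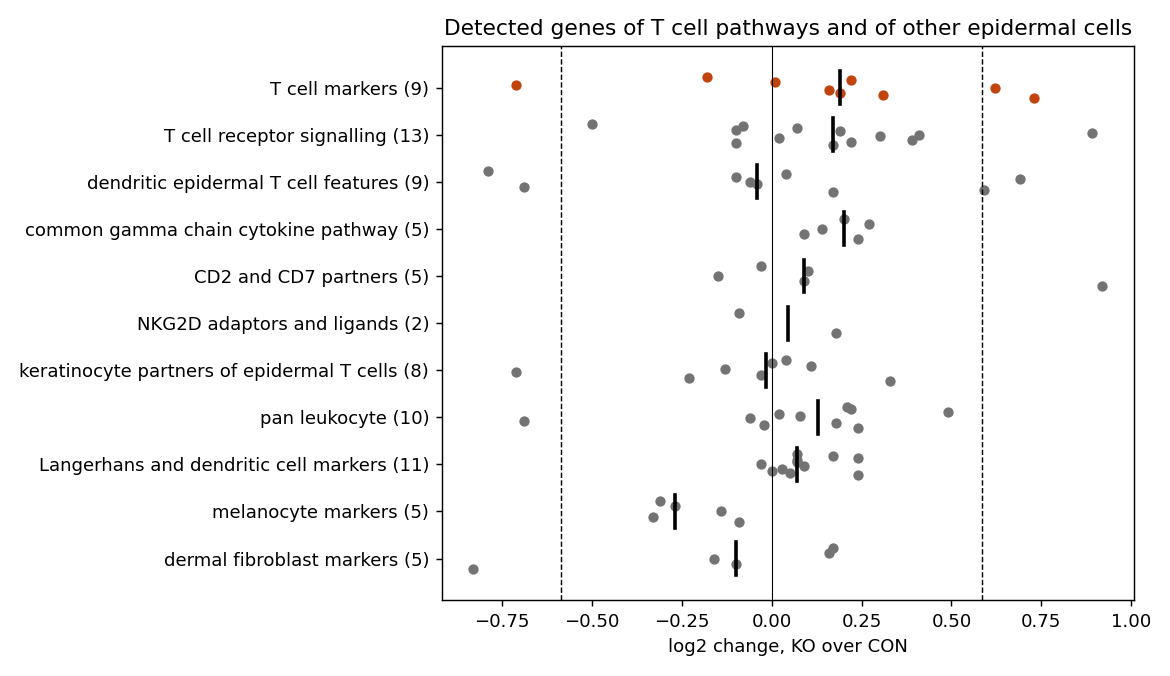
Log2 change, KO over CON, of the detected genes in each list, with the number detected in parentheses, the T cell markers in orange, the list median as a black bar and dashed lines at 1.5-fold. The T cell markers and the receptor signalling genes have medians of 0.19 and 0.17, and the dendritic epidermal T cell features spread on both sides of 0.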

How the data were processed

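Epidermal RNA was measured in 1 pool of VDR KO and 1 pool of CON mice, grouped by their titles. The array software was GenomeStudio 2011.1, as the submitters' processing notes state. Per the file headers, the authors deposited non-normalized average bead intensity values, which are linear, and a detection p-value for each probe. Their normalized intensity table holds the same detection p-values (0 differing) and sorted signals that match between arrays within 0.3, as quantile normalization gives. No genome build is named in the labels or files.

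The non-normalized intensities were corrected and normalized with neqc in limma 3.58.1 (R 4.3.3), which uses the detection p-values, an offset of 16, quantile normalization and log2. The offset and background model affect dim probes most. Gene names were updated through RefSeq (GRCm38.p6), and 322 of 25697 probes kept the file's name. A gene was represented by its brightest probe. A pool in which a probe was undetected gave a bound against the lowest detected signal of that array, or its own value where that was higher. The steps were tested on simulated data. Tables and figures were made in Python 3.11.15 with pandas 2.3.3 and matplotlib 3.10.9.

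Members and lists were chosen with earlier results of these data known. The rule for named genes took all members, Vdr, detected list genes past 1.5-fold, up to 4 of the brightest and 4 of the most changed genes of a pathway list, and up to 3 of the brightest of other cell types. Some further list genes are named for their role. Matching by updated name, by any probe and over all members was added after seeing the data. Summed list signals are neqc values on the linear scale less the offset, over detected genes.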

Additional observations from a re-analysis of the deposited data

How the results depend on the processing

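The count of 9 detected markers was 9 with a detection p-value under 0.05, 7 when detection in both pools was required, 8 with symbols as the file gives them (without Cd247), and 9 with any probe of a gene. Of the 2 markers past 1.5-fold higher and the 1 lower, 0 and 0 remained past 2-fold, 0 and 0 reached 1.5-fold in the authors' normalized table, and 0 and 0 without background correction. With members undetected in 1 pool at their bound, 1 was higher (Cd2) and 0 lower. The median log2 change of 0.19 was 0.14 in the normalized table, 0.15 without background correction, 0.21 without Thy1, 0.21 without Cd247 and 0.21 over all 10 measured members, and stayed at 0.19 over members detected in both pools and with detected probes averaged. The counts past 1.5-fold shrink where the background stays in the signal, since it is added to both pools. No replicate could be left out. No paired analysis was possible because each genotype had 1 pool. Signal over background limits Cd7, Klrk1, Il2rb and 2 of 3 Cd247 probes, and pooling hides the spread between mice.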

Other observations

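Genes through which keratinocytes hold or select epidermal T cells were also on the array. Of 12 measured 8 were detected, 4 with values above 0 and 4 below, and the median log2 change was -0.01. Skint genes encode butyrophilin-like proteins of epidermis and thymus, of which Skint1 is known for the selection of dendritic epidermal T cells. Skint1 was not analysed here. Skint9 read 9936.1 in KO and 10577.0 in CON (-0.13) and Skint3 read 709.8 in KO and 791.9 in CON (-0.23). Skint4 read 257.8 in KO and 249.3 in CON (-0.03), and Skint2 was higher, at 190.5 in KO and 171.8 in CON (0.33, or 1.26-fold). Skint7 read 192.3 in KO and 226.2 in CON (-0.71), and in the authors' normalized values its ratio of KO to CON was 0.804, under 1.5-fold. The Skint genes share sequence, so their probes may share signal. Ccl27a, a keratinocyte chemokine that attracts skin T cells, read 14547.3 in KO and 13580.9 in CON (0.00), and Cdh1, the E-cadherin gene bound by CD103, read 1514.0 in KO and 1435.1 in CON (0.04).

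Cxadr, whose protein is the ligand of the T cell receptor JAML, gave probes that went apart, a case chosen after its values were seen. Its dimmest probe read 610.1 in KO and 238.3 in CON, a log2 change of 2.0. The other 2 read 3683.0 and 1230.1 in KO against 3349.0 and 1349.1 in CON, log2 changes of 0.11 and -0.20. Jaml itself, which stands close to the CD3 genes in the RefSeq gene order, read 184.3 in KO and 180.5 in CON (-0.06).

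Of 7 measured melanocyte markers 5 were detected. By their brightest probes all 5 were lower in KO, with a median log2 change of -0.27 and 0 past 1.5-fold. For Tyrp1 1 of 3 detected probes was above 0, and for Slc45a2 1 of 2. The brightest Slc45a2 probe was undetected in KO, with a bound of -0.23. Pmel, a melanosome protein gene, read 735.8 in KO and 872.8 in CON (-0.33), and Dct, an enzyme gene of pigment synthesis, read 1870.8 in KO and 1934.3 in CON (-0.09).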
